A study of Rattus norvegicus with 20 samples.

Results

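The genes of the GABA-A receptor subunits were examined in the central amygdala of rats of the alcohol-preferring (P) line, which was selected for high voluntary drinking of ethanol. The members were chosen by gene symbol: Gabra2, Gabra3, Gabra4, Gabra5, Gabrb1, Gabrb2, Gabrg1, Gabrg3, Gabrd and Gabre, each taken from the probe sets that the array annotation gave to that symbol alone. They comprised 10 genes of 14217 with such a probe set, and 14 probe sets of 31042. The series held 20 Affymetrix expression arrays, 1 per animal: 10 from P rats that had access to 15% and 30% ethanol in adolescence, in a binge-like pattern, and 10 from P rats that had only water. All animals were of the P line, so the groups shared that genotype and differed in what they drank. The labels do not state intake, sex, exact age or the time between drinking and dissection.

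GABA-A receptors are pentameric chloride channels opened by GABA, the main inhibitory transmitter of the adult brain. Alpha and beta subunits form the GABA-binding site between them, and the third kind of subunit sets much of the location and pharmacology. Receptors with a gamma subunit bind benzodiazepines at the interface with certain alpha subunits, whereas receptors with a delta subunit lie outside synapses, carry tonic inhibition and respond strongly to neurosteroids. The epsilon subunit forms benzodiazepine-insensitive receptors in the hypothalamus, amygdala and brainstem. Most neurons of the central amygdala are GABAergic, and ethanol is known to act on inhibitory transmission there.

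Each value is a log2 probe set summary, so a difference of 1 is a doubling of the array signal. Medians per array ranged over 7.92 to 7.97, and the correlation of 2 arrays over all probe sets ranged over 0.977 to 0.997. The arrays of ethanol animal 5 and of water animals 15 and 18 stood apart, with mean correlations with the other arrays under 0.990. Of 11 central amygdala markers, 10 were measured and 9 lay above the filter on low signal (mean log2 value over all arrays above 7.14). Somatostatin (Sst) averaged 13.13 ± 0.38 in ethanol arrays and 12.99 ± 0.47 in water arrays, and Prkcd, a marker of lateral central amygdala neurons, averaged 9.78 ± 0.42 in ethanol arrays and 9.62 ± 0.47 in water arrays (SD, n = 10 each). Markers of neighbouring tissue were measured as well, and they varied widely among animals: the transthyretin gene Ttr, made by the choroid plexus, averaged 8.58 ± 2.98 in ethanol arrays and 11.39 ± 3.78 in water arrays.

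The members lie on 5 rat chromosomes. On chromosome 14, Gabrb1 is next to Gabra4 with 0 protein-coding genes between them, 1 gene separates Gabra4 from Gabra2, and 0 separate Gabra2 from Gabrg1 (RefSeq, GRCr8). Gabrg3 and Gabra5 are adjacent on chromosome 1, 1 gene separates Gabre from Gabra3 on chromosome X, Gabrb2 lies on chromosome 10, and Gabrd on chromosome 5. RefSeq promoters were matched for 9 of the 10 genes. The 250 bases before the start are printed 5′ to 3′ for 5 genes, because their transcripts made up the pairs that varied together, or oppositely, most strongly among animals. Capitals mark the motif letters searched, on either strand: GGGCGG (the GC box), CCAAT, TGACGTCA (the cyclic AMP response element) and TATAAA. The positions are chr5:171252710-171252959 on the minus strand for Gabrd, chr14:36944497-36944746 on the plus strand for Gabra4, chr14:36902894-36903143 on the minus strand for Gabrb1, chr14:37750042-37750291 on the plus strand for Gabrg1 and chrX:155120722-155120971 on the minus strand for Gabre.
Gabrd: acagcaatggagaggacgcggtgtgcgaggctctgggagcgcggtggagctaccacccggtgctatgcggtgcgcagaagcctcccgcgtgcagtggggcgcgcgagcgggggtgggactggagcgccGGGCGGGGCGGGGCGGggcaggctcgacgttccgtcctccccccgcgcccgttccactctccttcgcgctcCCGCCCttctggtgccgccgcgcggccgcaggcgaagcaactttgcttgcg
Gabra4: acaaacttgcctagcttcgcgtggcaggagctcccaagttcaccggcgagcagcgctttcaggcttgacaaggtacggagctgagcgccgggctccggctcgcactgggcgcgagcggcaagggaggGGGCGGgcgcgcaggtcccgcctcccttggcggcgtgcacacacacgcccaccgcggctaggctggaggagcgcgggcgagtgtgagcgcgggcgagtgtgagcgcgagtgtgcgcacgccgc
Gabrb1: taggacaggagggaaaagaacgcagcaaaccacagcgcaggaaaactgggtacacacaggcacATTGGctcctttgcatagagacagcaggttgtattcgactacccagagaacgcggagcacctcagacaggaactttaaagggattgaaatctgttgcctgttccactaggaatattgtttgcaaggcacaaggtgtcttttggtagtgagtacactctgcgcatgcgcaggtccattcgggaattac
Gabrg1: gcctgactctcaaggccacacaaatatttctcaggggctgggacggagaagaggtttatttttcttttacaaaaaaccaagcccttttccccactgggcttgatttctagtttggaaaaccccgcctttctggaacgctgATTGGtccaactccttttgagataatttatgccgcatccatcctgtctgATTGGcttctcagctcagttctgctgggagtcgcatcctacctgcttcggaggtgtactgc
Gabre: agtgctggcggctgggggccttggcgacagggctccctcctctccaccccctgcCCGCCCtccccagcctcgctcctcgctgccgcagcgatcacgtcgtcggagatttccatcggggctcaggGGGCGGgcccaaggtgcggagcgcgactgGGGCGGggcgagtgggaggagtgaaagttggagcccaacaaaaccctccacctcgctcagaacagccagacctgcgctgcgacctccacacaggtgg

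The Gabrd promoter was 74.0% G and C and held 4 GC boxes, and the Gabra4 promoter was 71.6% and held 1. The Gabre promoter was 69.6% G and C with 3 GC boxes. Of the matched promoters not printed, that of Gabra5 held 1 GC box and that of Gabrg3 held 2, while those of Gabra3 and Gabrb2 held 0. The Gabrb1 and Gabrg1 promoters were 49.2% and 48.4% G and C, held 0 GC boxes, and carried 1 and 2 CCAAT boxes. Over 33469 RefSeq promoters of the same length the median was 51.2% G and C, 30.5% held a GC box, 34% a CCAAT box, 1.59% the cyclic AMP response element and 12.9% TATAAA. The motifs are a description of letters, chosen after the promoters had been read, and do not show that a factor binds.

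The alpha subunit genes differed little between the groups. Gabra2 (probe set 1397614_at), the alpha gene linked to alcohol dependence in human association studies, was 11.60, 11.91 and 12.21 in ethanol arrays (lowest, median and highest), against 11.50, 11.92 and 12.32 in water arrays. The ethanol range lay wholly inside the water range. Gabra5 (1371057_at), whose subunit is largely extrasynaptic and abundant in hippocampus, was 10.79, 10.96 and 11.13 in ethanol arrays, against 10.52, 10.86 and 11.24 in water arrays, again with the ethanol range inside that of water. Gabra4 (1369905_at), whose subunit often partners delta outside synapses, was 8.10, 9.08 and 9.39 in ethanol arrays, against 8.24, 8.91 and 9.25 in water arrays. Of the ethanol animals, 8 lay above the water mean and 2 above the highest water animal, while ethanol animal 1 lay below every water animal. Gabra3 (1369844_at), which encodes an alpha subunit common in brainstem and basal forebrain, lay below the filter, at 5.09, 5.62 and 6.11 in ethanol arrays, against 5.15, 5.58 and 6.34 in water arrays. Signal of this size is close to the array's low end, and the groups overlapped almost entirely.

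The beta genes gave strong signal and overlapped between the groups. Gabrb1 (1369904_at) was 13.02, 13.33 and 13.48 in ethanol arrays, against 12.89, 13.28 and 13.49 in water arrays. Gabrb2 (1377773_at), which encodes the beta subunit of the most common synaptic receptor, was 12.28, 12.47 and 12.87 in ethanol arrays, against 12.21, 12.42 and 12.65 in water arrays. Only ethanol animal 9 lay above the water range of this Gabrb2 probe set. The other Gabrb2 probe set (1369818_at) lay below the filter, averaged 6.71 ± 0.28 in ethanol arrays and 6.52 ± 0.20 in water arrays (SD, n = 10 each), and correlated with the main one at 0.55 over the 20 group-centred arrays.

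Of the gamma genes, Gabrg1 (1387706_at), whose subunit is found in the amygdala and in astrocytes, was 8.18, 8.61 and 9.11 in ethanol arrays, against 8.07, 8.86 and 9.45 in water arrays. Here 7 ethanol animals were lower than the water mean, and the ethanol range again lay inside the water range. Gabrg3 (1369267_at) lay below the filter, with 4.96, 5.10 and 5.33 in ethanol arrays, against 4.88, 5.09 and 5.45 in water arrays.

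Gabrd (1369048_at), the delta subunit gene, was 8.27, 9.32 and 9.84 in ethanol arrays, against 8.63, 9.05 and 9.62 in water arrays. In all, 9 of 10 ethanol animals lay above the water mean and 2 above the highest water animal, and ethanol animal 1 lay below the lowest. A further Gabrd probe set (1395269_s_at) was 8.79, 9.21 and 9.64 in ethanol arrays, against 8.82, 8.98 and 9.36 in water arrays, also with 9 of 10 ethanol animals above the water mean. It correlated with the main set at 0.89 over the group-centred arrays, whereas the third (1395270_x_at, below the filter) correlated at 0.36 and averaged 6.81 ± 0.15 in ethanol arrays and 6.73 ± 0.08 in water arrays (SD, n = 10 each). Gabre (1388049_a_at), the epsilon subunit gene, had the widest spread of the 10 main probe sets in both groups. It was 6.82, 7.72 and 8.59 in ethanol arrays, against 6.76, 7.61 and 8.27 in water arrays. Ethanol animal 1, the lowest for Gabrd, was the highest for Gabre. The other Gabre probe set (1369383_a_at) was near the array's low end, at 5.15 ± 0.18 in ethanol arrays and 5.14 ± 0.11 in water arrays (SD, n = 10 each), and correlated with the main one at -0.08, so the Gabre results rest on 1 probe set.

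**Figure D1:**
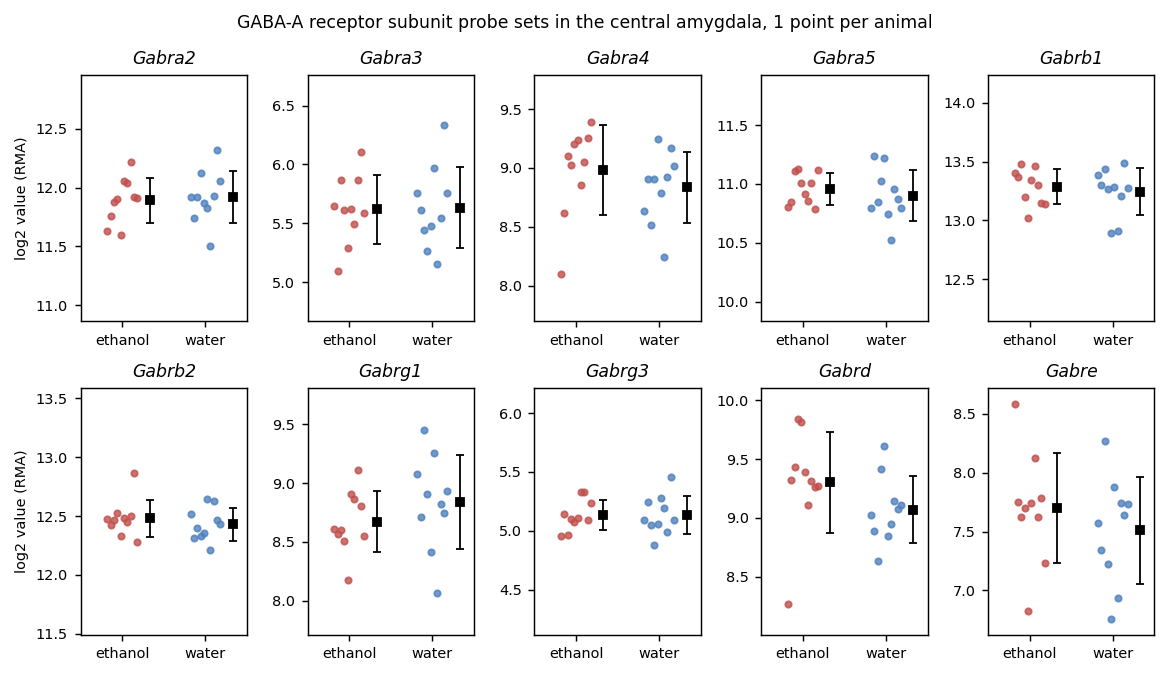
Log2 RMA value (vertical axis, the same span in every panel) of the main probe set of each of the 10 subunit genes, with ethanol animals on the left and water animals on the right, 1 point per animal, and squares with bars for the mean ± SD (n = 10 each). The groups overlap in every panel, and Gabre and Gabrd spread most among the ethanol animals (SD 0.47 and 0.43).

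The signal of a probe set depends on its own probes as well as on its transcript, so the spread of main-set means in water arrays, between 5.13 for Gabrg3 and 13.24 for Gabrb1, gives no order of transcript amounts. In water arrays Gabrb1, Gabrb2, Gabra2 and Gabra5 had means of 13.24 ± 0.20, 12.43 ± 0.14, 11.92 ± 0.22 and 10.90 ± 0.22 (SD, n = 10). Gabrd, Gabrg1 and Gabra4 had means of 9.07 ± 0.28, 8.84 ± 0.40 and 8.84 ± 0.30, and Gabre of 7.51 ± 0.45.

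Ethanol access in adolescence was not followed by a detectable change in any of the subunit genes. Of the 9 subunit probe sets above the filter, 0 passed an adjusted p of 0.05 in limma (Benjamini-Hochberg over 18625 probe sets), where 0.0215% of all probe sets passed (4 in all). At an unadjusted p of 0.05, 1 of 9 passed, against 12.8% of all probe sets. The median difference of the 8 main sets above the filter was 0.05, with 6 above 0, where all tested probe sets had a median of 0.02 and 57.8% above 0. All differences are log2, ethanol minus water, and fewer cells of a type cannot be told apart from less RNA per cell in this bulk tissue.

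Gabrd showed the highest difference of the main probe sets, 0.23 ± 0.15 (SE; 95% interval -0.08 to 0.55; adjusted p = 0.509, limma). That was 9.30 ± 0.43 in ethanol arrays and 9.07 ± 0.28 in water arrays (SD, n = 10 each), a 1.18-fold signal, and without ethanol animal 1 the difference was 0.35. The second Gabrd probe set, 1395269_s_at, was the 1 that passed unadjusted, at 0.22 ± 0.08 (SE; p = 0.0176, adjusted p = 0.320, limma). The mean of the 3 Gabrd probe sets differed by 0.18 ± 0.09 (SE; adjusted p = 0.395, limma). Striatal medium spiny neuron markers differed in the same direction. All 9 measured markers were higher with ethanol, and their mean was 10.89 ± 0.37 in ethanol arrays (range 10.07 to 11.36) and 10.69 ± 0.29 in water arrays (range 10.18 to 11.13). With the striatal and cortical scores as covariates, the difference of the main Gabrd set was 0.03 ± 0.05 (SE) and that of 1395269_s_at 0.12 ± 0.05 (SE; adjusted p = 0.306, limma). With the myelin score as a covariate they were 0.12 and 0.19, and 1395269_s_at had an unadjusted p of 0.0575 (adjusted p = 0.413, limma). The main Gabrd set followed the striatal score among animals of the same group (r = 0.91). The striatal covariate therefore also takes out much of the variation of Gabrd itself. The cause of the Gabrd difference was not tested.

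Gabre differed by 0.19 ± 0.19 (SE; 95% interval -0.21 to 0.59; adjusted p = 0.681, limma), with 7.70 ± 0.47 in ethanol arrays and 7.51 ± 0.45 in water arrays (SD, n = 10 each). With the striatal and cortical scores as covariates the difference was 0.40 ± 0.13 (SE; unadjusted p = 0.00688, adjusted p = 0.235, limma). Gabra4 differed by 0.15 ± 0.14 (SE; interval -0.15 to 0.45; adjusted p = 0.667, limma). It differed by 0.03 with the striatal and cortical scores, by 0.07 with the myelin score and by 0.06 without the 3 arrays that stood apart. Gabrg1, the lowest of the differences, differed by -0.17 ± 0.14 (SE; interval -0.46 to 0.12; adjusted p = 0.616, limma), and by -0.08 with the striatal and cortical scores. The other 4 main sets above the filter were closer to 0. Gabra5, Gabrb2 and Gabrb1 differed by 0.06, 0.05 and 0.04, and Gabra2 by -0.03, with adjusted p between 0.765 and 0.910 (limma). The intervals of these 4 lay between -0.21 and 0.22, so differences beyond that size, relative to this spread among animals, lay outside them. Gabra3 and Gabrg3 were fitted without the filter and differed by -0.013 and 0.0012 (adjusted p = 0.985 and 0.998, limma).

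**Figure D2:**
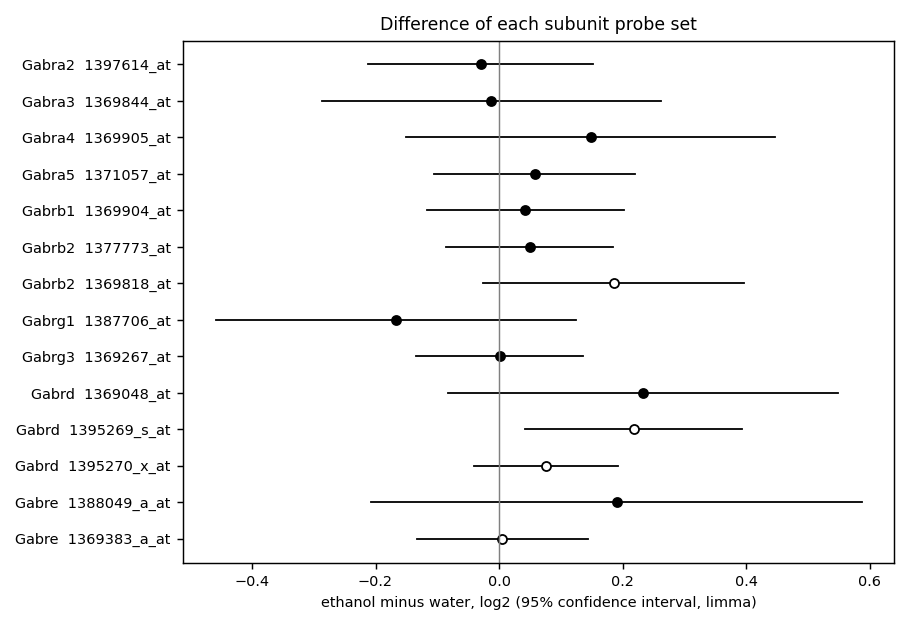
Difference of each of the 14 subunit probe sets, ethanol minus water on the log2 scale (horizontal axis), with its 95% confidence interval from limma; filled points are main probe sets and open points the others. The Gabrd set 1395269_s_at is the only interval that does not reach 0 (0.04 to 0.39), and it did not pass the adjusted threshold.

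Genes that make, release, scaffold or respond to GABA were measured beside the receptors, and 0 of 36 tested passed the adjusted threshold in either direction, against 0.0215% of all probe sets. At an unadjusted p of 0.05, 5 of 36 passed, near the 12.8% of all probe sets. Of the 36 genes, 26 were above 0, where 57.8% of all tested probe sets were. All 5 genes of GABA synthesis and release were above 0 (median 0.08). They included Gad2, a GABA-synthesising enzyme, at 0.15, and the vesicular transporter Slc32a1 at 0.11. Of 18 scaffold and trafficking genes, 13 were above 0 (median 0.03). Gphn, which encodes gephyrin, the scaffold of inhibitory synapses, was 11.34 ± 0.06 in ethanol arrays and 11.21 ± 0.08 in water arrays (SD, n = 10 each), higher than the water mean in 10 of 10 ethanol animals, at 0.14 ± 0.04 (SE; adjusted p = 0.230, limma). Nsf, whose product takes part in vesicle fusion and receptor trafficking, differed by 0.18 (adjusted p = 0.239, limma; its 2 other probe sets by 0.21 and 0.33).

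Of 8 chloride transport genes, 5 were above 0 (median 0.04), near the 57.8% of all tested probe sets. Slc12a5, the neuronal chloride extruder KCC2, was 13.82 ± 0.05 in ethanol arrays and 13.69 ± 0.13 in water arrays (SD, n = 10 each), and 10 of 10 ethanol animals lay above the water mean (adjusted p = 0.313, limma). Slc4a3, an anion exchanger, differed by 0.11 (adjusted p = 0.306, limma). The 3 GABA-B receptor genes had a median of 0.02, with Gabbr1 at 0.09 (its 4 other probe sets between -0.04 and 0.17) and the auxiliary subunit gene Kctd12 at 0.02 (its other probe set at 0.24). Both neurosteroid genes tested were below 0. Tspo, the mitochondrial translocator protein, differed by -0.37 (adjusted p = 0.445) and Dbi, the diazepam binding inhibitor, by -0.23 (adjusted p = 0.291), and for each gene 9 ethanol animals were lower than the water mean (limma). Pan-neuronal markers moved with the genes above 0: all 10 were higher with ethanol, with a mean of 12.42 ± 0.10 (range 12.31 to 12.65) in ethanol arrays and 12.30 ± 0.12 (range 12.06 to 12.48) in water arrays. Myelin markers moved the other way, with 9 of 9 lower with ethanol and a mean of 12.38 ± 0.48 (range 11.46 to 12.99) in ethanol arrays and 12.74 ± 0.38 (range 12.12 to 13.24) in water arrays. Astrocyte markers were lower in 8 of 9, with a mean of 12.01 ± 0.10 (range 11.88 to 12.14) in ethanol arrays and 12.13 ± 0.08 (range 11.98 to 12.21) in water arrays. Meningeal markers were lower in 7 of 7, with a mean of 8.14 ± 0.43 (range 7.68 to 9.19) in ethanol arrays and 8.52 ± 0.71 (range 7.80 to 10.20) in water arrays. When the myelin score entered the fit, the 36 genes had a median of 0.03, with 0 past the adjusted threshold and 6 unadjusted (limma). The part of the pan-neuronal, astrocyte and meningeal lists in these differences was not tested.

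Some subunits varied together, or oppositely, among animals of the same group. Over 45 pairs of main probe sets, with each group centred on its mean, 7 pairs passed an adjusted p of 0.05 by Pearson correlation, 6 positive and 1 negative, and 16 passed unadjusted (permutation within groups, 20 arrays, two-sided). The smallest r that passed was 0.58 in size. Of all pairs among 10159 genes above the filter, 7.59% had an r at least as far from 0, against 7 of the 45 subunit pairs (15.6%). The subunit pairs share genes, and unlike the background they include genes below the filter, Gabra3 and Gabrg3. Wide covariation was therefore present across the arrays, and no test was made of whether the subunits exceeded it. Spearman correlation passed 1 pair, Gabra3 with Gabrb2, and 12 unadjusted. Within the 10 ethanol arrays 0 pairs passed and within the 10 water arrays 0 passed, with 8 and 7 unadjusted (permutation). The difference between the groups' correlations was not tested.

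Gabrb1, Gabrg1 and Gabre formed a set of 3 positive pairs. Gabrb1 and Gabre correlated at r = 0.75 (permutation p = 0.00025, adjusted p = 0.0113) and rho = 0.63 (permutation p = 0.00458, adjusted p = 0.0642), with r = 0.71 in ethanol arrays and 0.79 in water arrays. Gabrg1 and Gabre correlated at r = 0.69 (permutation p = 0.00113, adjusted p = 0.0170) and rho = 0.65 (permutation p = 0.00353, adjusted p = 0.0642), with r = 0.46 in ethanol arrays and 0.87 in water arrays. Gabrb1 and Gabrg1 correlated at r = 0.67 (permutation p = 0.00269, adjusted p = 0.0254) and rho = 0.50 (permutation p = 0.0317, adjusted p = 0.134), with r = 0.48 in ethanol arrays and 0.77 in water arrays. Ethanol animal 5 and water animals 16 and 18 were low for all 3 genes.

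Gabrd, Gabra4 and Gabra5 were joined by 2 positive pairs, both through Gabra4. Gabra4 and Gabrd, whose subunits assemble together in extrasynaptic receptors, correlated at r = 0.69 (permutation p = 0.00336, adjusted p = 0.0254) and rho = 0.57 (permutation p = 0.0106, adjusted p = 0.0740). Within groups r was 0.73 in ethanol arrays and 0.62 in water arrays. Gabra4 and Gabra5 correlated at r = 0.58 (permutation p = 0.00489, adjusted p = 0.0314) and rho = 0.46 (permutation p = 0.0470, adjusted p = 0.176), with r = 0.52 in ethanol arrays and 0.69 in water arrays.

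Gabrd and Gabre were the 1 pair that passed in the negative direction, at r = -0.74 (permutation p = 0.00067, adjusted p = 0.0151) and rho = -0.60 (permutation p = 0.00713, adjusted p = 0.0642). The correlation was -0.79 in ethanol arrays and -0.70 in water arrays. Gabra3 and Gabrb2 correlated at r = 0.63 (permutation p = 0.00338, adjusted p = 0.0254) and rho = 0.74 (permutation p = 0.00054, adjusted p = 0.0243), although Gabra3 lay below the filter. The 6 pairs on chromosome 14 had r between -0.20 and 0.67 (median 0.50, 1 passed), and the 37 pairs on different chromosomes a median of 0.19 (6 passed).

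The calls depended on which arrays were included. Without the 2 arrays farthest from the median of the first gene, 1 of 45 pairs passed, Gabra3 with Gabrb2 (r = 0.77). The others were 0.61 for Gabrb1 with Gabre, 0.57 for Gabrg1 with Gabre, 0.39 for Gabrb1 with Gabrg1, 0.46 for Gabra4 with Gabrd, 0.42 for Gabra4 with Gabra5 and -0.54 for Gabrd with Gabre. Those 6 pairs kept their direction but not their call, with fewer arrays and a narrower range of the first gene. Without the 3 arrays that stood apart, 4 pairs passed, of which 2 were among the 7, Gabrd with Gabre (-0.77) and Gabra4 with Gabrd (0.74). The other 2 were negative, Gabra4 with Gabre (-0.76) and Gabra5 with Gabre (-0.72). The positive pairs among Gabrb1, Gabrg1 and Gabre did not pass in that setting, with r = 0.65 for Gabrb1 with Gabre, 0.57 for Gabrg1 with Gabre and 0.46 for Gabrb1 with Gabrg1. Among the 8 arrays of the first run of accession order, Gabrb1 with Gabre was 0.48 and Gabrd with Gabre -0.84, and among the 8 of the second run they were 0.996 and -0.78.

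**Figure D3:**
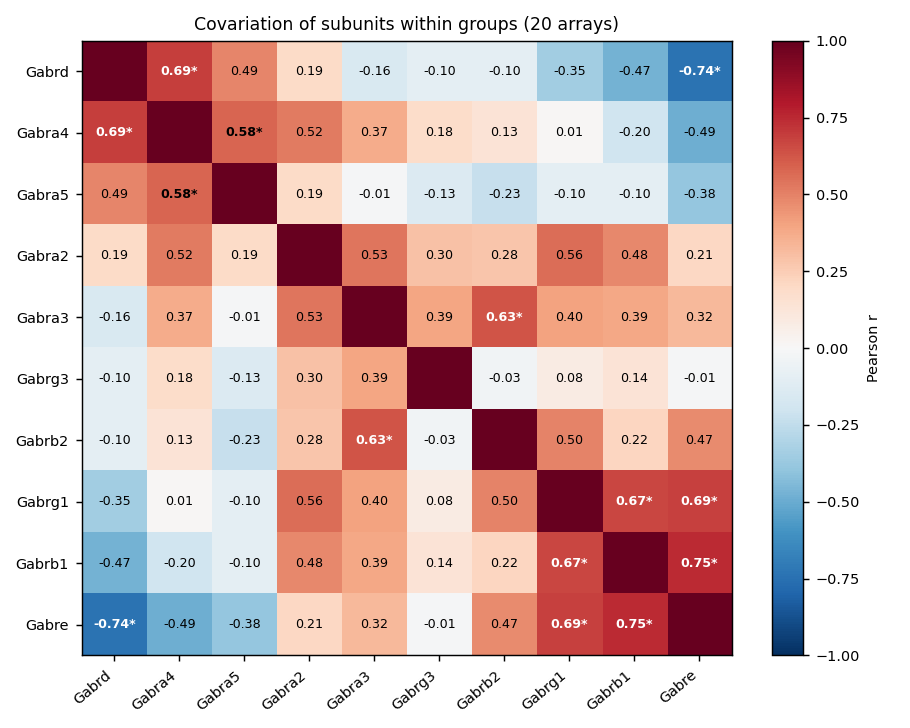
Pearson r (colour and printed value) between the group-centred log2 values of the 10 subunit genes over 20 arrays, with subunits along both axes; an asterisk marks an adjusted permutation p under 0.05. Gabrg1, Gabrb1 and Gabre form a block at 0.67 to 0.75, and Gabrd with Gabre is the negative pair at -0.74.

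Several subunits followed markers of particular cell types or neighbouring tissue. Of 100 relations between the 10 genes and 10 marker lists, 11 passed an adjusted p of 0.05 by Pearson correlation (2 positive, 9 negative). Without adjustment 26 passed, and by Spearman correlation 6 passed the adjusted threshold (permutation within groups, 20 arrays). The share of all genes with as strong an r to these scores was not computed. Whether the subunits exceeded the wide covariation across the arrays was therefore not tested. Gabrd followed the striatal score most closely, at r = 0.91 (adjusted p = 0.001, the smallest the permutations over 100 relations could give) and rho = 0.80 (adjusted p = 0.005). The correlation was 0.92 in ethanol arrays and 0.90 in water arrays, 0.95 and 0.92 in the first and second runs of accession order, and 0.81 without the 2 arrays farthest from the median score. Ethanol animal 1 had the lowest striatal score, 10.07, and the lowest Gabrd. Ethanol animal 5 and water animal 16 had the highest striatal scores of their groups, 11.36 and 11.13, with Gabrd at 9.81 and 9.62.

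Gabre ran the other way against the same score, at r = -0.73 (adjusted p = 0.0091) and rho = -0.53 (adjusted p = 0.162), and Gabrb1 at r = -0.62 (adjusted p = 0.0412) and rho = -0.65 (adjusted p = 0.0462; permutation). After the striatal and cortical scores were removed from each gene, the correlation of Gabrd with Gabre was 0.09 and that of Gabra4 with Gabrd 0.28, whereas Gabrb1 with Gabre was 0.77 and Gabrb1 with Gabrg1 0.64. Gabrd itself followed the striatal score at r = 0.91, so removing that score also took out much of the variation of Gabrd. The residual value therefore cannot tell what joined the negative pair, and this was not tested.

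**Figure D4:**
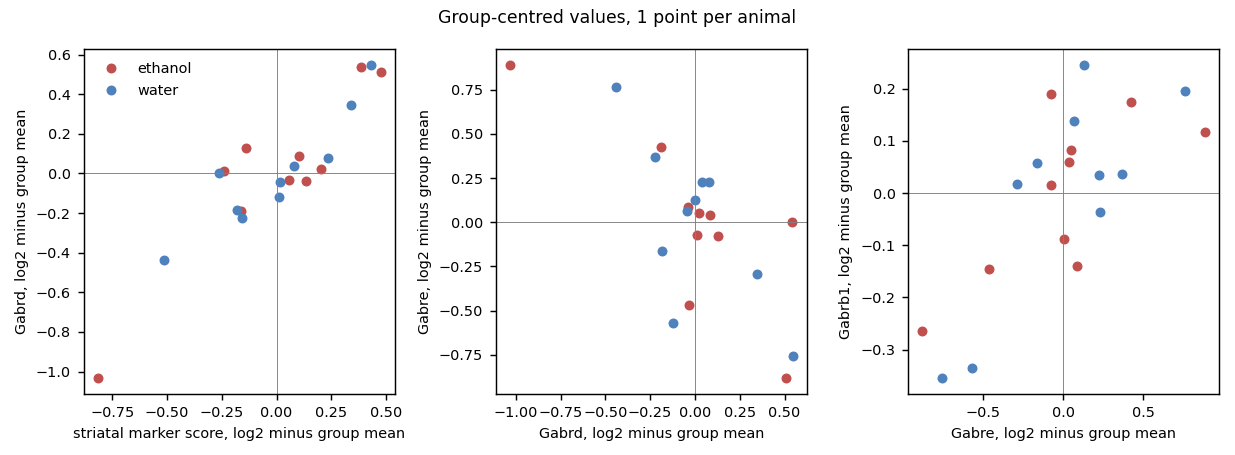
Group-centred log2 values, 1 point per animal, for Gabrd against the striatal marker score (left), Gabre against Gabrd (middle) and Gabrb1 against Gabre (right), with ethanol animals in red and water animals in blue. Gabrd follows the striatal score in both groups (r = 0.92 in ethanol arrays and 0.90 in water arrays), and ethanol animal 1 lies farthest out in the left and middle panels.

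Gabrb1, Gabrg1 and Gabre were lower where choroid plexus markers were higher, at r = -0.73, -0.74 and -0.73 (adjusted p = 0.0091 each) and rho = -0.51, -0.46 and -0.57 (adjusted p = 0.193, 0.236 and 0.120; permutation). The correlations were -0.12, -0.31 and -0.33 in the first run and -0.96, -0.96 and -0.94 in the second. Gabrb2, Gabra3 and Gabra2 also had negative r with the choroid score, at -0.61, -0.59 and -0.49 (rho = -0.62, -0.53 and -0.27). They did not pass (adjusted p = 0.0839, 0.0678 and 0.156 for r, permutation). Their r was -0.22, -0.39 and 0.34 in the first run and -0.89, -0.82 and -0.80 in the second. Of the 10 genes only Gabrd had a positive r, 0.37. The second run held ethanol animal 5 and water animals 16 and 18, whose choroid scores were 10.73, 10.14 and 11.26. The choroid score as a whole was 7.04 ± 1.39 in ethanol arrays (range 6.04 to 10.73) and 8.23 ± 1.60 in water arrays (range 6.34 to 11.26), with 6 of 6 markers lower with ethanol. After the choroid and meningeal scores were removed, Gabrb1 with Gabrg1 was 0.27, Gabrg1 with Gabre 0.35 and Gabrb1 with Gabre 0.66.

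Meningeal markers were negatively related to Gabrb1 (r = -0.80, rho = -0.69, adjusted p = 0.0090 and 0.0462), Gabrg1 (r = -0.65, rho = -0.22, adjusted p = 0.0469 and 0.606) and Gabra2 (r = -0.64, rho = -0.30, adjusted p = 0.0421 and 0.457; permutation). Without the 2 arrays farthest from the median score the Gabrg1 and Gabra2 relations were -0.21 and -0.29, so they rest on those arrays. Gabrb2 followed the pan-neuronal score (r = 0.79, rho = 0.68, adjusted p = 0.0090 and 0.0462; permutation), with r = 0.85 in ethanol arrays and 0.75 in water arrays. In the first run of accession order it did not, at -0.11, against 0.88 in the second. Gabra5 was negatively related to endothelial and mural markers (r = -0.58, rho = -0.64, adjusted p = 0.0467 and 0.0462, permutation). By Spearman correlation alone, Gabra5 also passed with the cortical and basolateral list (r = 0.60, rho = 0.68, adjusted p = 0.0581 and 0.0462, permutation). With the central amygdala score the 10 subunits had r between -0.43 (Gabra5) and 0.53 (Gabrb1; permutation p = 0.0231, adjusted p = 0.129), and none passed the adjusted threshold.

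**Figure D5:**
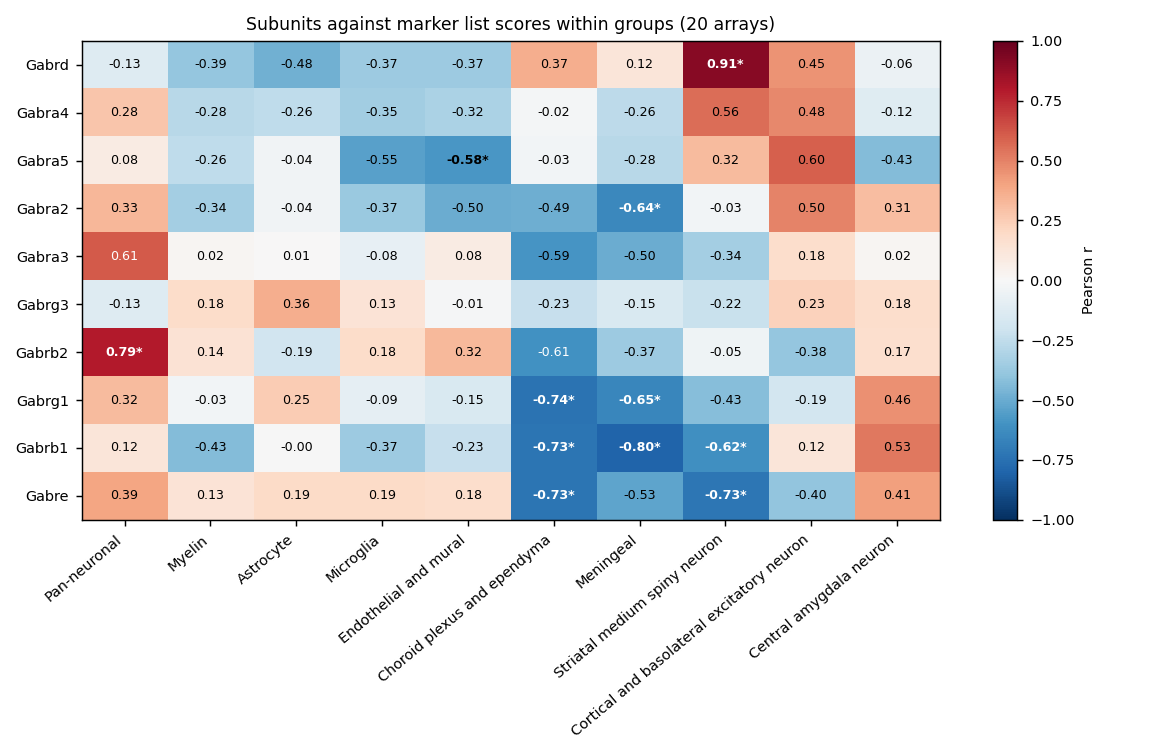
Pearson r (colour and printed value) between the group-centred value of each subunit gene (vertical axis) and the mean of each of 10 marker lists (horizontal axis) over 20 arrays; an asterisk marks an adjusted permutation p under 0.05. Gabrd with the striatal list is the strongest cell at 0.91, and the choroid list is at -0.73 to -0.74 for Gabrg1, Gabrb1 and Gabre.

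Single animals carried several extremes. Water animal 18 was the lowest water animal for 6 of the 10 genes (Gabra2, Gabra3, Gabra4, Gabra5, Gabrb2 and Gabrg1), and its choroid and meningeal scores, 11.26 and 10.20, were the highest of the series. Ethanol animal 5 was the lowest ethanol animal for 4 genes, Gabra2, Gabrb1, Gabrg1 and Gabre. Ethanol animal 1 was the lowest for Gabra4, Gabrg3 and Gabrd and the highest for Gabre, and water animal 20 was the highest water animal for 4 genes, Gabra2, Gabra3, Gabrb1 and Gabrg3.

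The genes whose pattern over the 20 group-centred arrays was most like each member's are given by Pearson r, as a description, among 10158 to 10159 candidates on the same arrays. Gabrd was closest to Smad3, a transcription factor of transforming growth factor beta signalling, and to Arel1, a ubiquitin ligase gene (0.96 and 0.95). Gabre was closest to the kinesin gene Kif26b and to Qpct, which encodes glutaminyl cyclase (0.97 and 0.95). Gabrb1 was closest to Tmem130 and to Gnaz, a G protein alpha subunit gene (0.93 and 0.93). Gabra4 was closest to Grin2b, an NMDA receptor subunit gene, and to the synaptic scaffold gene Cnksr2 (0.84 and 0.83). Gabra2 was closest to Trim24 and to the presynaptic active zone gene Rims2 (0.86 and 0.85), and Gabrg1 to Prune1 and Adnp2 (0.86 and 0.83). For Gabrb2 they were Tbc1d19 and Coq3, a coenzyme Q synthesis gene (0.86 and 0.79), and for Gabra5 Ildr2 and Rapgefl1 (0.83 and 0.82). The members below the filter were closest to Sox21 and Ctcf (Gabrg3, 0.81 and 0.75) and to Vstm2b and Pafah1b1 (Gabra3, 0.79 and 0.79).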

How the data were processed

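Total RNA of the central amygdala was extracted with Trizol and a Qiagen RNeasy column, and the 3' IVT Express kit gave the biotinylated cRNA, per the labels' protocols. The authors deposited 1 log2 value per probe set and array, made with RMA (robust multi-array average), per the submitters' processing notes, which name no version. The range of 3.82 to 16.16 shows the log base. RMA background-corrects and quantile-normalizes arrays together, so a shift common to all genes would not be seen. The number of arrays limits the precision.

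The table held 31099 probe sets and 0 missing values; 57 controls were left out. The annotation gave 1 symbol to 20826 probe sets, several to 436 and none to 9780. Groups were taken from the treatment labels, and titles give each array its own animal number, so samples were not paired. No label names a batch; the arrays were split into 3 runs of accession order (4, 4 and 2 animals per group). limma 3.58.1 (R 4.3.3) was run on probe sets whose mean was above the 40th percentile (log2 7.14), 18625 in all, two-sided, with Benjamini-Hochberg adjustment at 0.05; the scripts were tested on simulated data. Members below the filter were fitted with no filter. Each gene's main probe set was the one with the highest mean. Correlations used 100000 permutations within groups (Python 3.11.15, scipy 1.17.1), exact within runs, and marker scores are means of log2 values over a list.

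The text names all members, from each pathway list the genes that passed or, with none, at most 2 of lowest p, and up to 2 genes most like each member. Members, gene lists and tests were chosen with earlier results of these data known. Names, neighbours and promoters came from RefSeq tables of GRCr8. Alternatives were other filters, median centring, cyclic loess, array weights, eBayes with trend and robust settings, a block for the run, marker scores as covariates, left-out animals, Spearman correlation, and within-group, within-run and residual correlations. Chosen after seeing the data were leaving out the 3 arrays that stood apart, within-run differences, and the share of all gene pairs with a given r. So were residuals after the striatal with cortical or the choroid with meningeal scores. Marker relations without the 2 arrays farthest from the median score were also chosen then.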

Additional observations from a re-analysis of the deposited data

Results flagged for a closer look

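Among 28 groups of 10 arrays (14 subunit probe sets in both groups), 4 held an animal whose gap to its nearest neighbour was wide for the group's range by Dixon's test. Chance gives about 1 in 20 groups. Ethanol animal 9 was high for both Gabrb2 probe sets, at 12.87 for 1377773_at (next highest ethanol animal 12.53) and 7.40 for 1369818_at (next highest 6.96). Ethanol animal 1 was low for Gabrd 1369048_at, at 8.27 (next lowest 9.11), and it also had the lowest striatal score, 10.07. Ethanol animal 7 was low for Gabrd 1395270_x_at, at 6.42 (next lowest 6.75).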

How the results depend on the processing

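Of 104 subunit differences under settings other than left-out animals and runs, 99 kept their direction and stayed short of the threshold, and 5 turned sign: Gabra2 with array weights (0.0050), Gabra3 with striatal and cortical covariates (0.046), Gabrb1 with the myelin score (-0.021), and Gabrg3 with cyclic loess (-0.00093) and without the 3 arrays that stood apart (-0.016). The lowest adjusted p of a main probe set was 0.200, and 0.185 with 1 animal left out (limma, Gabrd). For Gabrd 1395269_s_at it was 0.170 with array weights and 0.154 without ethanol animal 1. The 60th percentile filter leaves out Gabra3, Gabrg3 and Gabre.

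Leaving out 1 animal moved Gabra2 between -0.077 and 0.014, Gabra3 between -0.067 and 0.066, Gabra4 between 0.082 and 0.25, Gabra5 between 0.015 and 0.095, Gabrb1 between 0.0032 and 0.072, Gabrb2 between 0.0061 and 0.074, Gabrg1 between -0.25 and -0.099, Gabrg3 between -0.027 and 0.037, Gabrd between 0.17 and 0.35, and Gabre between 0.091 and 0.29, with pathway calls at 0. Within the first run the sign turned for Gabra3 (0.035), Gabra4 (-0.030), Gabra5 (-0.0029) and Gabrg3 (-0.025), within the second for Gabra2 (0.19), Gabra3 (0.034), Gabrb2 (-0.023) and Gabrg1 (0.13), and within the third for Gabrb1 (-0.24), Gabrg3 (-0.10) and Gabre (-0.18). The cause was not tested. Of the main probe sets, only that of Gabrd kept its sign in all 3 runs (0.23, 0.27 and 0.18). The Gabrd set 1395269_s_at kept it as well (0.28, 0.20 and 0.13), whereas 1395270_x_at, below the filter, turned in the third run (0.14, 0.067 and -0.035).

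Over all probe sets the 4 calls became 2 with the 60th percentile filter, 23 with array weights, 1 with striatal and cortical covariates, 0 with the myelin score (limma; 2355 at an unadjusted p of 0.05), and 1 to 8 with an animal left out. At an unadjusted p of 0.05, 1373 were higher and 1020 lower, against 972 and 1309 with cyclic loess.

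Against 7 pairs in all arrays, 1 passed by Spearman correlation or without the 2 farthest arrays. Within ethanol arrays 0 passed (8 unadjusted) and within water arrays 0 (7 unadjusted, permutation). In the first run 0 passed (8 unadjusted, permutation), in the second 2 (1 of the 7), and without the 3 arrays 4 (2 of the 7). Within a run the smallest p that the permutations could give was 0.00174, so no pair could pass alone over 45 pairs. With the pan-neuronal and myelin scores removed 10 passed (6 of the 7), with the striatal and cortical scores 8 (4 of the 7), and with the choroid and meningeal scores 7 (3 of the 7; 5 negative). Against 11 marker relations by Pearson correlation, 6 passed by Spearman correlation. Of the 6, Gabra5 with the cortical and basolateral list was not among the 11. Gabrd with Gabre turned to 0.086 after the striatal and cortical scores, and in the first run Gabrb2 with the pan-neuronal score turned to -0.11 and Gabrg1 with the meningeal score to 0.0035. Gabra3 and Gabrg3, below the filter, are the least well measured.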
